A study of Mus musculus with 6 samples.

Results

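The 35 genes described here act in cell division, 14 in S phase, when DNA is copied, and 21 in mitosis, when the copies are separated. They were picked by gene name from the 30462 genes of the deposited table by a rule that holds no measured value, though with earlier results of these data known, and all 35 were found in it. The samples were cochleae, which hold the sensory epithelium for hearing, taken from mice at postnatal day 7. The labels give tissue, genotype and replicate, with 3 libraries labelled Neu4 knockout (replicates 2, 4 and 5) and 3 labelled wild type (replicates 3, 4 and 5). Neu4 encodes a sialidase, which removes sialic acid from glycoproteins and glycolipids. The sources used here do not give the strain, the allele, how the mutant was made, or whether a library is 1 animal or a pool. The p-values therefore measure only the spread between these samples, which may be technical.

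A dividing cell loads the ring of Mcm2 to Mcm7, the replicative helicase, onto origins of DNA with the help of Cdc6. Cyclin E with its kinase and the GINS complex then start copying, with Pcna as the clamp that holds the polymerase on DNA. Cyclin B with Cdk1 drives entry into mitosis, and the checkpoint kinases hold back the separation of the chromosomes until all are attached. Cdc20 and Ube2c, parts of the ubiquitin ligase pathway of the anaphase promoting complex, end mitosis. Hair cells and supporting cells of the mouse cochlea leave the cell cycle before birth, while glia, mesenchyme, vessels, bone and blood cells around them still divide after birth. In such bulk tissue, fewer dividing cells and less RNA per dividing cell cannot be told apart.

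S phase genes are known as targets of E2F factors, and mitosis genes as targets of complexes that read the element called CHR (cell cycle genes homology region). RefSeq promoter windows on GRCm38.p6, from 250 bases before to 50 after each start, were found for 28 of the 35 members, in 29 windows. The E2F letters searched were TTTCCCGC, TTTCGCGC, TTTGCCGC and TTTGGCGC, the CHR letters were TTTGAA and TTCGAA, and the CCAAT box was searched as CCAAT, all on both strands. E2F letters were found in 5 of the 12 windows of S phase genes (41.7%) and in 1 of the 17 of mitosis genes (5.88%), against 2.26% of all 32851 windows. CHR letters were found in 2 of the 12 (16.7%) and in 14 of the 17 (82.4%), against 19.2% of all windows. CCAAT was in 9 of the 12 (75.0%) and 16 of the 17 (94.1%), against 37.4%. E2F matches overlapped each other in Mcm5 and Mcm6. A match is a description of letters and not a binding site.

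The stretches below end at the base before the start and are examples of the letters. Each gene shown has a match of the kind marked, and only E2F or only CHR letters are marked in a class. The stretches therefore do not compare the classes, for which the shares above are given. The only mitosis window with E2F letters was that of Cdk1, and these letters lie before the stretch shown. Capitals mark E2F letters on either strand in the S phase genes Mcm5 (chr8:75109344-75109508, plus strand), Mcm6 (chr1:128359706-128359825, minus strand) and Cdc6 (chr11:98908006-98908150, plus strand).
Mcm5: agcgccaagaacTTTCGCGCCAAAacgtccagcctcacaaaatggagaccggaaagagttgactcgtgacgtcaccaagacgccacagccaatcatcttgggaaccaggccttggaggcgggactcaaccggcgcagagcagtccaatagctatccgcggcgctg
Mcm6: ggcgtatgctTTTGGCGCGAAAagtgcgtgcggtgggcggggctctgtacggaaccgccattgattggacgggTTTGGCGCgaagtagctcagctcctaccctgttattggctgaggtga
Cdc6: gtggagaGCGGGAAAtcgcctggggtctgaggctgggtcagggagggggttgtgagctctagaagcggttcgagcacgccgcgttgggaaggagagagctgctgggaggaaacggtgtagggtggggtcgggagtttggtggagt
In the mitosis genes Cdc20 (chr4:118437344-118437403, minus strand), Ube2c (chr2:164769869-164769928, plus strand), Top2a (chr11:99024190-99024249, minus strand), Kif11 (chr19:37376322-37376381, plus strand) and Cdk1 (chr10:69352913-69353002, minus strand), capitals mark CHR letters on either strand.
Cdc20: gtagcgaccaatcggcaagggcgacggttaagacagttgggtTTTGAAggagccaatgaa
Ube2c: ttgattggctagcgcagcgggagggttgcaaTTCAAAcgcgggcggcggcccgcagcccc
Top2a: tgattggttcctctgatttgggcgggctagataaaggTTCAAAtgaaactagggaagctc
Kif11: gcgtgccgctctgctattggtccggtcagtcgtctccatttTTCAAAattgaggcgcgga
Cdk1: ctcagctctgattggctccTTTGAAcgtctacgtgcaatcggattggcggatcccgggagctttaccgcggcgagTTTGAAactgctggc

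Values are FPKM, fragments scaled to exon length and to sequencing depth, and the depth implied by them was 15170973 to 17192293 fragments per library. Neu4 itself had only 4 to 8 fragments in each library, at 0.0797 ± 0.0255 (SD, n = 3) in knockout and 0.0779 ± 0.0242 in wild type (exact permutation p = 0.8, two-sided, smallest possible 0.1), so that it does not check the labels. Genes of the cochlea were present in all libraries, such as Tectb of the tectorial membrane (mean FPKM 111 in knockout and 95.2 in wild type) and Pou3f4 of the otic mesenchyme (94.1 and 78.5). Hair cell markers such as Myo6 (9.04 and 7.54) were present too, while the outer hair cell motor gene Slc26a5 was at a mean of 0.0764 over the 6 libraries. All 35 members passed the filter of FPKM 1 or more in at least 3 libraries, and each rested on 115 to 1658 fragments per library.

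No cell division gene passed the test between genotypes. Of the 35 members, 0 had an adjusted p under 0.05 (limma, Benjamini-Hochberg over 14072 genes), where 0.334% of all tested genes did, and the smallest adjusted p was 0.153. At an unadjusted p under 0.05 there were 5 members, all lower in knockout, where 6.99% of all tested genes were past that limit and lower. Of the S phase members 10 of 14 had a log2 fold change below 0, with a median of -0.08, and of the mitosis members 11 of 21, with a median of -0.03. Over all tested genes the median was 0.02, and 43.1% were below 0. The fold changes are on the scale of log2(FPKM + 1), which understates the change of low genes. The 95% intervals of the 35 members together lay between -0.50 (Ube2c) and 0.48 (Kif11) on this log2 scale.

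**Figure D1:**
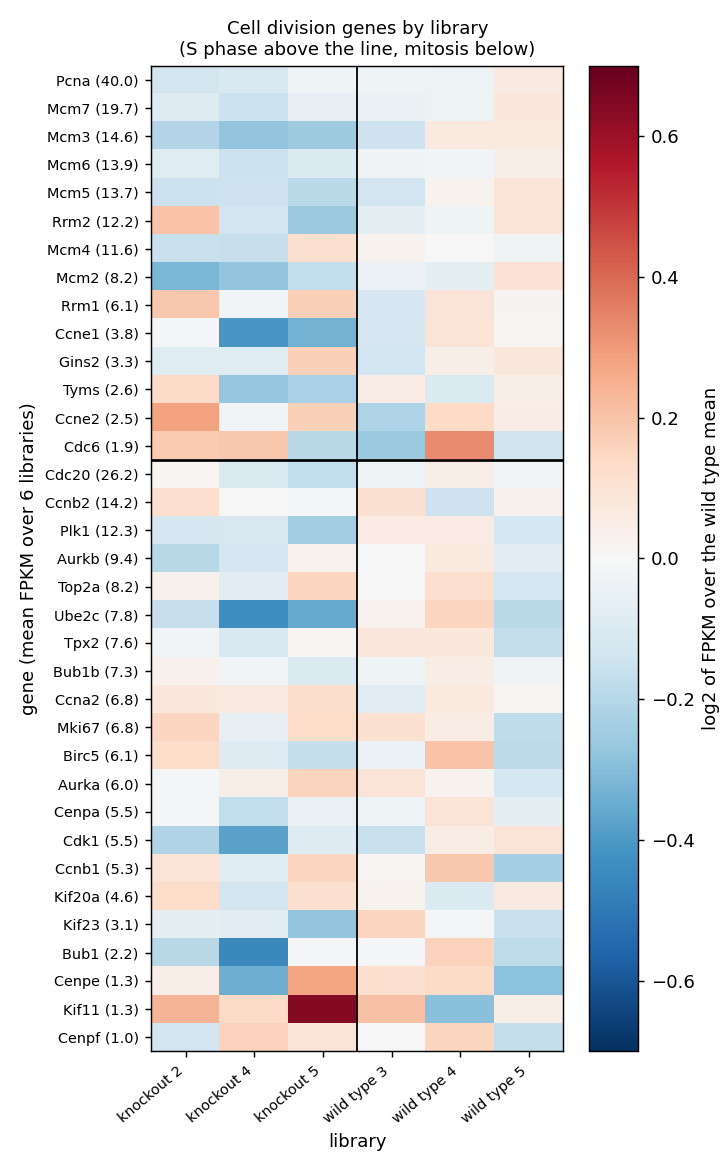
FPKM of each member in each library, as the log2 of its ratio to the wild type mean (colour), with genes in rows ordered by mean FPKM (in brackets) and libraries in columns. Most Mcm rows are blue in all 3 knockout libraries, and most mitosis rows are paler or blue in wild type 5 as well as in knockout 4.

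Among S phase genes, the Mcm2 to Mcm7 helicase subunits were the only ones whose groups did not overlap, Mcm4 excepted. All 6 had a log2 fold change below 0, with a median of -0.12, and in 5 of the 6 every knockout library was below every wild type library. Over all tested genes 9.54% had groups that did not overlap in this direction, and 12.6% did with median-ratio scaling, under which it was again 5 of the 6 subunits. None of the 6 passed the adjusted test.

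Mcm2 (ENSMUSG00000002870, chromosome 6, 88883474 to 88898780, minus strand, GRCm38) had FPKM of 7.12, 7.35 and 7.88 in knockout libraries 2, 4 and 5 and of 8.64, 8.53 and 9.53 in wild type libraries 3, 4 and 5. The groups did not overlap, at 7.45 ± 0.393 against 8.90 ± 0.551 (SD, n = 3), with a log2 fold change of -0.23 (SE 0.0623, 95% interval -0.37 to -0.08, limma adjusted p = 0.153). These values rest on 825 to 1060 fragments per library. Mcm3, which pairs with Mcm5 in the ring (chromosome 1, 20802968 to 20820312), had 13.7, 13.04 and 13.3 FPKM in the knockouts and 14.3, 16.6 and 16.6 in the wild types. Its log2 fold change was the same size, -0.23 (SE 0.0647, limma adjusted p = 0.163), and wild type 3 lay closest to the knockouts.

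Mcm5 (chromosome 8, 75109569 to 75128439) had 13.002, 13.1 and 12.7 FPKM in knockout libraries 2, 4 and 5 against 13.2, 14.7 and 15.4 in wild type libraries 3, 4 and 5. The gap between its groups was narrow, and the log2 fold change was -0.15 (SE 0.0618, limma adjusted p = 0.281). Mcm6 (chromosome 1, 128331590 to 128359664) had 13.6, 12.97 and 13.4 FPKM in the knockouts and 14.2, 14.2 and 14.8 in the wild types, a log2 fold change of -0.10 (SE 0.0437, limma adjusted p = 0.282). Mcm7 (chromosome 5, 138164583 to 138172422), the most abundant subunit, had 19.2, 18.4 and 19.6 FPKM in the knockouts and 19.8, 19.9 and 21.5 in the wild types (log2 fold change -0.09, limma adjusted p = 0.376), and the log2 fold change was -0.055 without wild type 5. Mcm7 overlaps Cops6 and Ap4m1 on the other strand, and the sources used here do not say if strand was used in counting. Mcm4 was the subunit whose groups overlapped, at 10.6, 10.6 and 12.8 FPKM in knockout libraries 2, 4 and 5 and 12.1, 11.8 and 11.6 in the wild types. Its knockout 5 was the highest of the 6 libraries (log2 fold change -0.06, limma adjusted p = 0.695).

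Summed over the 6 subunits, the level was 77.2, 75.4 and 79.6 FPKM in knockout libraries 2, 4 and 5 and 82.1, 85.6 and 89.5 in wild type libraries 3, 4 and 5. These sums rest on 5317 to 6475 fragments per library, and their means, 77.4 ± 2.13 and 85.7 ± 3.72 (SD, n = 3), stand in a ratio of 0.903. Within the subunits, Mcm2 had the lowest mean over all libraries, 8.18 FPKM, and Mcm7 the highest, 19.7.

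**Figure D2:**
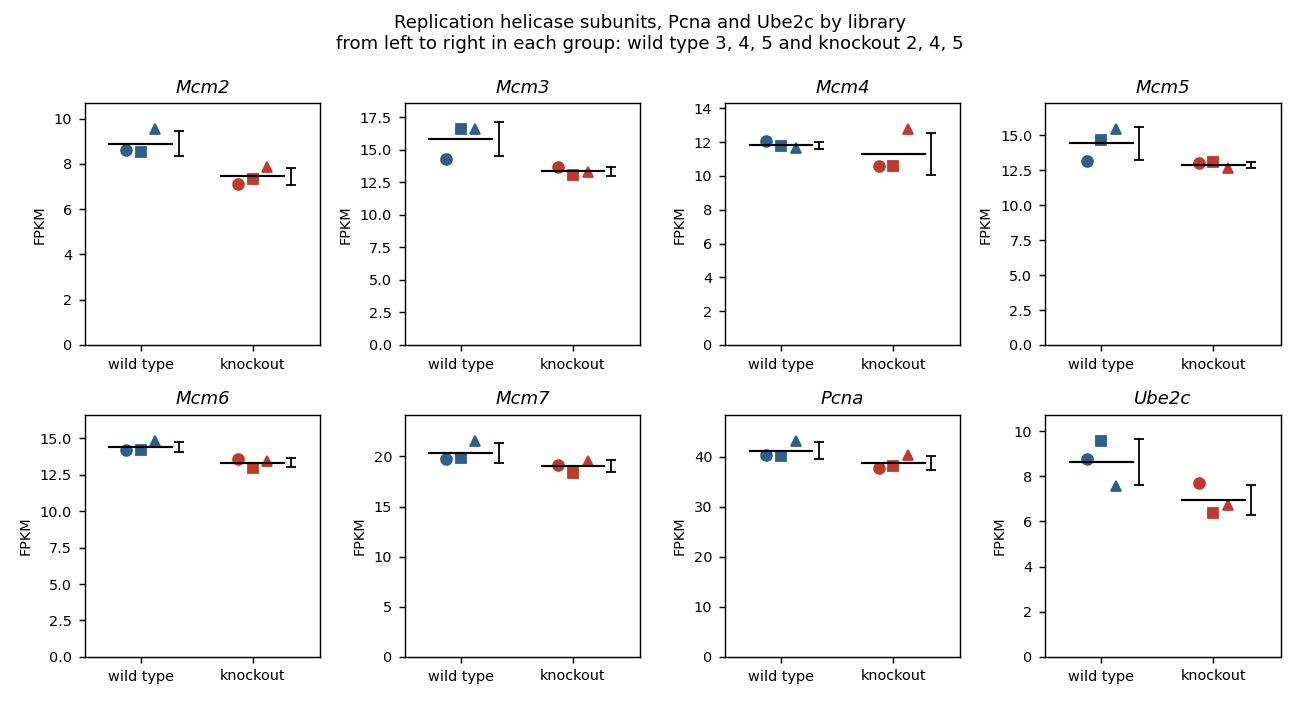
FPKM (y axis, from 0) of the 6 helicase subunits, Pcna and Ube2c in each library, with points for libraries, horizontal lines for group means and bars for ± 1 SD. The wild type and knockout points do not overlap for Mcm2, Mcm3, Mcm5, Mcm6 and Mcm7, and overlap for Mcm4, Pcna and Ube2c.

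Outside the helicase, the other 8 S phase genes were divided, 4 below and 4 above 0, and in all 8 the groups overlapped. Pcna, the most abundant member, had 37.7, 38.3 and 40.5 FPKM in knockout libraries 2, 4 and 5 and 40.4, 40.2 and 43.2 in wild type libraries 3, 4 and 5 (log2 fold change -0.09, 95% interval -0.20 to 0.03, limma adjusted p = 0.391). Only knockout 5 reached into the wild type range, and without wild type 5 the log2 fold change was -0.053. The cyclins E, which bind Cdk2 at the start of S phase, lay on opposite sides of 0. Ccne1 had 4.08, 3.11 and 3.27 FPKM in the knockouts against 3.80, 4.39 and 4.16 in the wild types (log2 fold change -0.19, SE 0.0963, limma adjusted p = 0.343). Ccne2 had 2.92, 2.37 and 2.70 against 2.06, 2.65 and 2.49 (log2 fold change 0.11, SE 0.0972, limma adjusted p = 0.597), and without wild type 3 the log2 fold change of Ccne2 was 0.035.

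The enzymes that supply deoxynucleotides did not differ beyond their spread. Rrm1, the large subunit of ribonucleotide reductase, was at 6.38 ± 0.493 FPKM in knockout and 5.89 ± 0.420 in wild type (SD, n = 3), and the small subunit Rrm2 at 12.0 ± 2.02 and 12.4 ± 0.689. Rrm2 was highest in knockout 2 (14.3) and lowest in knockout 5 (10.4), so that the knockouts spanned the wild types. Tyms, which makes thymidylate, was at 2.505 ± 0.402 and 2.70 ± 0.155. Of the genes that load and start the helicase, Cdc6 was at 1.92 ± 0.279 and 1.83 ± 0.413, and Gins2 at 3.35 ± 0.348 and 3.34 ± 0.256.

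In mitosis genes the groups overlapped for all 21 members, where they were apart in either direction for 24.8% of all tested genes. Ube2c, which encodes the ubiquitin-conjugating enzyme of the anaphase promoting complex, had the lowest log2 fold change. It had 7.71, 6.39 and 6.74 FPKM in knockout libraries 2, 4 and 5 and 8.76, 9.55 and 7.56 in wild type libraries 3, 4 and 5 (log2 fold change -0.27, SE 0.0951, 95% interval -0.50 to -0.05, limma adjusted p = 0.211). Knockout 2 was just above wild type 5. The span of Ube2c overlaps Tnnc2 on the other strand, and the sources used here do not say if strand was used in counting. The other end of the class was Kif11, the motor that separates the spindle poles, with 1.30, 1.204 and 1.71 FPKM against 1.27, 0.897 and 1.13 (log2 fold change 0.19, SE 0.120, limma adjusted p = 0.443). With a pseudocount of 0.1 Kif11 was farther from 0 than Ube2c, at 0.33 against -0.31. Without knockout 5 its log2 fold change was 0.10, and the gene rested on 115 to 194 fragments per library.

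The customary markers of dividing cells were at the same level in both groups within their spread. Mki67, which coats mitotic chromosomes and marks cells in cycle, had 7.28, 6.32 and 7.18 FPKM in knockout libraries 2, 4 and 5 and 7.08, 6.82 and 5.82 in wild type libraries 3, 4 and 5 (log2 fold change 0.07, 95% interval -0.13 to 0.26, limma adjusted p = 0.712). Top2a, which untangles DNA, had 8.28, 7.70 and 9.02 against 8.10, 8.80 and 7.43 (log2 fold change 0.04, 95% interval -0.15 to 0.22, limma adjusted p = 0.847). In both, wild type 5 was the lowest of the 6 libraries, and knockout 4 the lowest of the knockouts.

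Of the kinase at mitotic entry and its cyclins, Cdk1 had 5.08, 4.55 and 5.54 FPKM in the knockouts and 5.28, 6.12 and 6.28 in the wild types (log2 fold change -0.19, SE 0.0862, limma adjusted p = 0.318). Its partners did not share that direction. Ccnb2 had 15.2, 14.01 and 13.9 against 15.1, 12.7 and 14.3 FPKM (log2 fold change 0.03, limma adjusted p = 0.833), Ccnb1 was at 5.44 ± 0.453 and 5.23 ± 0.762, and Ccna2 at 7.05 ± 0.161 and 6.65 ± 0.339 (SD, n = 3). Pcna, Tyms and Ccnb1 have processed pseudogenes in the table, and the sources used here do not say how shared reads were divided. No search for pseudogenes of the other members is given here.

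Plk1, a kinase of spindle and centrosome, had 11.9, 12.0 and 10.9 FPKM in knockout libraries 2, 4 and 5 and 13.5, 13.5 and 11.9 in wild type libraries 3, 4 and 5 (log2 fold change -0.14, SE 0.0652, limma adjusted p = 0.313). The Aurora kinases were at 6.10 ± 0.372 and 5.84 ± 0.436 (Aurka, at the spindle poles) and at 9.06 ± 0.697 and 9.67 ± 0.478 (Aurkb, in the chromosomal passenger complex). Birc5, survivin of the same complex, was at 6.04 ± 0.665 and 6.20 ± 0.849. The checkpoint kinase genes Bub1 (2.02 ± 0.304 and 2.34 ± 0.275) and Bub1b (7.25 ± 0.328 and 7.40 ± 0.241) had overlapping groups. Cdc20, the activator of the anaphase promoting complex and the most abundant mitosis member, had 27.3, 25.1 and 24.0 FPKM against 26.4, 27.9 and 26.7 (log2 fold change -0.08, limma adjusted p = 0.477), and the log2 fold change of Cdc20 was -0.042 without knockout 5 and -0.13 without knockout 2.

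Centromere and spindle genes completed the class. Cenpa, the centromeric histone H3 variant, was at 5.37 ± 0.311 FPKM in knockout and 5.66 ± 0.323 in wild type (SD, n = 3). Cenpe, a kinetochore motor, was at 1.34 ± 0.280 and 1.33 ± 0.206, and Cenpf at 1.03 ± 0.108 and 1.00 ± 0.110, the lowest level of any member per length. Tpx2, which targets Aurora A to the spindle, was at 7.53 ± 0.309 and 7.74 ± 0.726. The motors of cytokinesis, Kif20a and Kif23, were at 4.67 ± 0.457 and 4.54 ± 0.257 and at 2.95 ± 0.232 and 3.24 ± 0.341. Ube2c, Cdc20, Kif20a, Ccna2, Ccne2, Gins2 and Mcm7 are the 7 members whose span overlaps a protein-coding gene on the other strand.

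**Figure D3:**
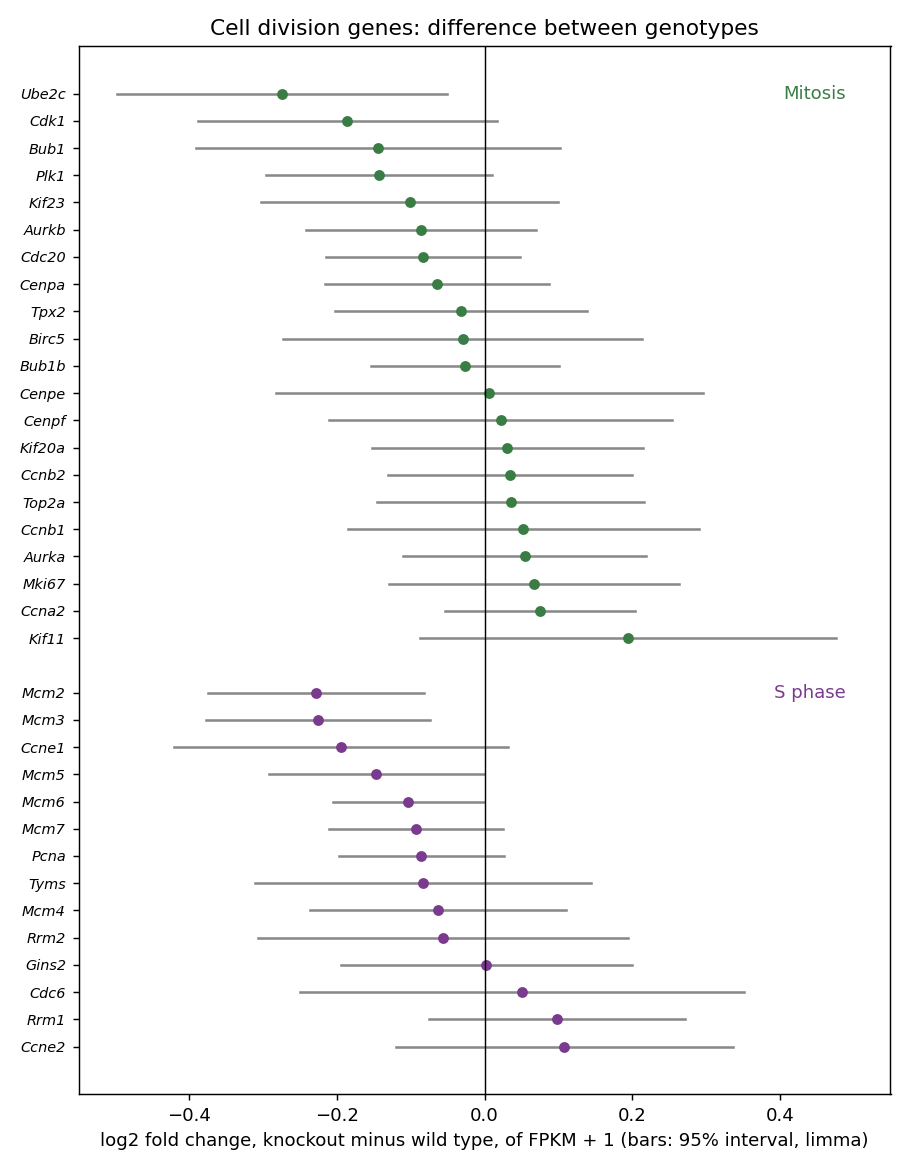
Log2 fold change of FPKM + 1, knockout minus wild type (x axis), for each member (rows), with 95% intervals from limma as bars. The intervals of Ube2c, Mcm2, Mcm3, Mcm5 and Mcm6 lie below 0, those of Mcm5 and Mcm6 only just, and all others cross 0.

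The summed FPKM of the classes differed most in wild type 5. The summed level of the 14 S phase genes was 151, 144 and 151 FPKM in knockout libraries 2, 4 and 5 and 153, 159.5 and 166 in wild type libraries 3, 4 and 5, with every knockout below every wild type. The mean log2 level of the same 14 genes, in which Pcna and the Mcm genes weigh less, overlapped, at 3.18 in knockout 2 and 3.14 in wild type 3. The summed FPKM of the other replication genes overlapped too, at 207 to 216 in knockout and 213 to 230 in wild type. That of the cell cycle regulators did not, at 463 to 474 in knockout and 477 to 499 in wild type. For the 21 mitosis genes the sums were 151, 140.5 and 147 FPKM in the knockouts and 153, 157 and 144 in the wild types, and the groups overlapped. Mitosis over S phase thus gave ratios of 0.999, 0.977 and 0.973 in the knockouts, 0.999 and 0.984 in wild types 3 and 4, and 0.862 in wild type 5. Wild type 5 was the highest library for 6 of the 14 S phase genes and the lowest for 0 of them, while it was the lowest for 7 of the 21 mitosis genes and the highest for 1. Knockout 4 was the lowest library for 6 S phase and 6 mitosis genes. By Xist and Ddx3y, knockouts 4 and 5 and wild type 5 were read as female and the others as male. The mitosis sums were 140.5 to 147 FPKM in the female libraries and 151 to 157 in the male ones. The ratios were 0.862 to 0.977 and 0.984 to 0.999, while the S phase sums of the sexes overlapped. The part of sex in these sums was not tested.

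In the other replication and mitosis genes, listed apart from the members, wild type 5 had the lowest ratio too. The ratio of their sums was 1.03, 0.995 and 1.02 in knockout libraries 2, 4 and 5, 1.06 and 1.01 in wild types 3 and 4, and 0.923 in wild type 5. Beside this, the Schwann cell markers summed to 932 FPKM in wild type 5, the lowest of the 6 libraries, against 1053 to 1657 in the others. Neutrophil precursor and marrow markers were lowest there too, at 32.0 FPKM against 55.2 to 151, with 8 of 10 genes at their lowest. B cell precursor markers summed to 4.52 FPKM in wild type 5, again the lowest, with 7 of 9 genes at their lowest. Only 3 of these 9 genes and 5 of the 10 marrow genes passed the filter. The B cell genes rested on 0 to 74 fragments per library, so these counts rest partly on genes near the floor. Skeletal muscle markers summed to 563 FPKM in wild type 5 and to 28.3 in knockout 4, the highest and lowest of the libraries. The part of these cells in the class levels was not tested.

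**Figure D4:**
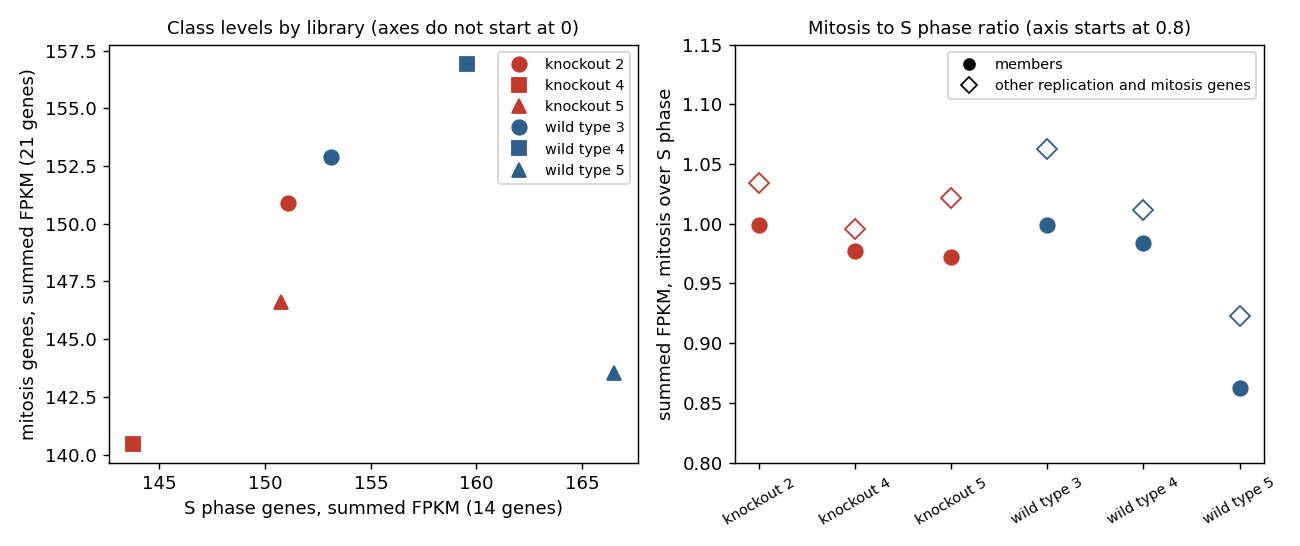
Left, summed FPKM of the S phase genes (x axis) against the mitosis genes (y axis) in each library; right, the ratio of mitosis to S phase sums for the members (filled) and for the other replication and mitosis genes (open). Wild type 5 has the highest S phase sum and the lowest ratio in both gene sets, 0.862 and 0.923.

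Of the 117 further cell cycle genes in 3 lists, 0 passed the adjusted test, as 0.334% of all tested genes did. Among 36 other replication genes, 34 were tested, 25 had a log2 fold change below 0 and the median was -0.07. The groups did not overlap in 5 that were lower and 1 that was higher in knockout, where the shares over all tested genes were 9.54% and 15.2%. Rpa2, a subunit of the protein that coats single-stranded DNA, had 6.90, 7.34 and 6.32 FPKM in the knockouts and 8.14, 8.41 and 8.61 in the wild types (log2 fold change -0.26, SE 0.0624, limma adjusted p = 0.128). Pold2, a subunit of DNA polymerase delta, had 17.6, 16.2 and 18.2 against 19.4, 19.9 and 20.7 (log2 fold change -0.19, limma adjusted p = 0.156). The knockouts were thus below all wild types in both genes, by an amount like that in Mcm2. Dnmt1, the maintenance DNA methyltransferase, had 17.1, 16.9 and 17.1 FPKM against 17.7, 18.4 and 17.8, again without overlap (limma adjusted p = 0.362). Gins4 of the GINS complex had 13.9, 14.2 and 15.9 against 13.4, 13.5 and 13.96, with overlapping groups.

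Of 50 other mitosis genes, 43 were tested, 29 had a log2 fold change below 0 and the median was -0.05. The groups did not overlap in 5 that were lower (11.6%, against 9.54% of all tested genes) and 1 that was higher in knockout. Kif18b, a motor that shortens astral microtubules, had 4.40, 4.42 and 4.004 FPKM in knockout libraries 2, 4 and 5 and 5.46, 5.28 and 5.11 in wild type libraries 3, 4 and 5, without overlap (log2 fold change -0.25, SE 0.0605, limma adjusted p = 0.128). Espl1, separase, had 3.57, 3.34 and 3.12 against 3.69, 3.90 and 3.83 (limma adjusted p = 0.302). The condensin gene Ncapd2 had 14.8, 14.4 and 14.02 against 15.6, 16.01 and 14.99 (limma adjusted p = 0.306). Both were lower in every knockout library than in any wild type library, and neither passed the test. Hjurp, the chaperone of Cenpa, had 25.4, 24.6 and 24.8 against 26.5, 25.6 and 23.6, with overlap. Incenp, of the passenger complex, had 11.7, 11.5 and 11.1 against 10.97, 11.97 and 10.7, also with overlap.

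Genes that set entry into the cycle were on both sides. Of 31 regulators 30 were tested, 18 with a log2 fold change below 0, and in 5 the groups were apart with knockout lower and in 5 with knockout higher (16.7% each, against 9.54% and 15.2% of all tested genes). The G1 kinase gene Cdk4 had 60.1, 58.2 and 63.3 FPKM against 65.0, 64.3 and 70.3 (log2 fold change -0.13, limma adjusted p = 0.250), and its partner Ccnd3 had 13.8, 14.1 and 15.0 against 15.1, 16.8 and 16.6 (log2 fold change -0.17, limma adjusted p = 0.202). Ccnd1, another partner of Cdk4, had 21.03, 21.5 and 22.4 against 22.8, 23.04 and 21.9, and its groups overlapped. Lin54, the subunit of the MuvB complex that reads the CHR, had 2.35, 2.15 and 2.42 against 1.71, 2.03 and 1.57 (log2 fold change 0.26, SE 0.0903, limma adjusted p = 0.211).

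The inhibitors of cyclin-dependent kinases named here did not share a direction. Cdkn1a and Cdkn1c were named for their high means, and Cdkn2a, Cdkn2b, Cdkn2c and Cdkn2d of the same list are not given. Cdkn1b, the inhibitor known to keep supporting cells out of the cycle, had 21.7, 22.2 and 21.5 FPKM in the knockouts and 21.1, 21.1 and 20.1 in the wild types (log2 fold change 0.07, limma adjusted p = 0.446), and the log2 fold change was 0.043 without wild type 5. The imprinted inhibitor gene Cdkn1c had 77.1, 79.5 and 77.3 against 85.2, 81.3 and 97.9 (log2 fold change -0.17, limma adjusted p = 0.269), and the log2 fold change was -0.092 without wild type 5. Cdkn1a, a target of p53, had 73.1, 68.8 and 62.5 against 65.9, 63.96 and 67.6, and its groups overlapped. Each was thus more abundant per length than any cyclin among the members.

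In marker lists of other cells, the summed levels were apart between the groups for 5 of 15 lists. Of all tested genes, taken singly, 24.8% were apart in either direction. Summed markers of the middle ear and skin epithelium (8 genes) were at 5.401 to 108 FPKM in knockout and 369 to 654 in wild type, and those of endothelial cells (7 genes) at 113 to 124 and 126 to 138. Strial marginal cell markers (6 genes) were at 82.6 to 87.9 in knockout and 69.5 to 72.8 in wild type. Spiral ligament fibroblast markers (6 genes) were at 516 to 568 and 432 to 459. Osteoblast markers (8 genes) were at 4068 to 5259 and 3758 to 4026. The highest single-gene means over the 6 libraries were 241 FPKM for the epithelium, 45.4 for strial, 318 for ligament and 2787 for osteoblast markers. Over all libraries, 1 gene thus made up most of the sum in each of these lists. The neutrophil precursor and marrow list (10 genes, 5 tested) was at 87.0 to 151 in knockout and 32.0 to 92.1 in wild type. The erythroid list (10 genes, 6 tested) was at 294 to 457 and 398 to 558, and in both lists the groups overlapped. Macrophage markers (7 genes) were at 170.4 to 176 and 170.5 to 182. Chondrocyte markers (9 genes) were at 4994 to 5867 and 4974 to 5439. Hair cell (9 genes, 59.2 to 65.8 and 48.9 to 59.8), supporting cell (10 genes, 307 to 351 and 299 to 313), spiral ganglion neuron (7 genes, 170.2 to 214 and 147 to 194) and B cell precursor sums (9 genes, 6.19 to 8.80 and 4.52 to 7.70) overlapped as well. Of the hair cell genes 6 were tested, and the highest single-gene mean was 29.1 FPKM. By mean log2 level, in which abundant genes weigh less, the hair cell groups were apart, at 2.15 to 2.23 in knockout and 2.00 to 2.07 in wild type. The mean log2 levels of the endothelial markers overlapped, at 3.89 in knockout 2 and 3.86 in wild type 5. Of the tested markers, 5 of 5 of the epithelium and 5 of 7 of the endothelium had a log2 fold change below 0. In contrast, 6 of 6 strial, 5 of 5 ligament and 8 of 8 osteoblast markers had one above 0. Such shared directions were not particular to lists with sums apart. Above 0 were also 6 of 6 tested hair cell, 3 of 3 B cell precursor, 6 of 7 spiral ganglion neuron and 4 of 5 marrow markers. Below 0 were 6 of 6 skeletal muscle, 7 of 8 Schwann cell and 5 of 6 erythroid markers. Supporting cell (5 of 9 above 0), chondrocyte (5 of 9) and macrophage markers (3 of 7) were mixed. Over all tested genes 43.1% were below 0. Markers listed at 0 in some library were Slc26a5 (knockout 4), Dntt, Fcnb, Myod1, Myf5 and Pax7. The part of any of these cells in the lower S phase sums was not tested.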

How the data were processed

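RNA of 6 cochlea libraries was sequenced, 3 knockout and 3 wild type, with the VAHTS Universal V6 kit per the labels' protocols. The authors deposited FPKM values on build GRCm38, the build per the submitters' processing notes. Aligner, counter and strand setting: not given in the sources used here. Multiplied by GENCODE M21 exon lengths, the values fell on whole steps, within 0.01 fragment plus a relative 1e-06, for 98.1% to 98.2% of values above 0, which gave depth and fragments.

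Genes reaching FPKM 1 in 3 or more libraries entered a limma fit of log2(FPKM + 1), limma 3.58.1 (R 4.3.3; lmFit, eBayes with trend), two-sided, with Benjamini-Hochberg adjustment over all genes tested and a threshold of 0.05. Errors are SD over libraries. The fit was also run on simulated data, and its rate of recovery for small changes is not given here. Python 3.11.15 with pandas 2.3.3, scipy 1.17.1 and matplotlib 3.10.9 made tables and figures.

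The members and lists were chosen with earlier results of these data known, so no p was adjusted over a list alone and no list was tested. Genes named by rule were, in each class, the 5 with the smallest p, the 3 with the highest mean and the extreme fold changes, plus Mki67, Top2a and Pcna. Of each further list these were the 3 highest and the 2 with the smallest p, plus Cdkn1b and Ccnd1, and of each marker list the 2 highest, of which only Tectb, Pou3f4 and Myo6 are printed, the lists being given as sums. Slc26a5 and the markers at 0 were chosen after their values were seen. The remaining members are given as means, to account for all 35. Alternatives were other pseudocounts, filters, scaling and weights, the replicate number as a block, sex as a covariate, voom on recovered fragments and leaving out each library. The labels give no sex. It was read from Xist and Ddx3y, and differed between the groups, with 1 male and 2 female knockout libraries and 2 male and 1 female wild type libraries.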

Additional observations from a re-analysis of the deposited data

How the results depend on the processing

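Under 16 alternatives 0 members and 0 genes of the further cell cycle lists were called (limma), the smallest adjusted p of a member being 0.0694. Of 507 values of 32 named genes, 492 kept their direction and their side of the threshold. The median log2 fold change of the S phase genes ran from -0.12 (replicate block) to -0.05 (without knockout 4), and that of the mitosis genes from -0.07 (without wild type 5) to 0.02 (sex as a covariate). The count over all genes, 47, was 19 with no filter, 103 with a filter of FPKM 5, 104 with library weights, 19 with no variance trend, 24 with sex as a covariate, 390 with voom on recovered fragments, and 12 to 105 with 1 library left out (12 without wild type 3 or 4, 105 without knockout 5). The cause was not tested. With the replicate number as a block the count was 22; same-numbered libraries correlated at 0.14 and 0.15 in their deviations from group means, and these are only 2 pairs, so no pairing was assumed. Of the 47 calls 18 were higher and 29 lower, and with median-ratio scaling 11 were higher and 33 lower. With voom the balance turned, to 224 higher and 166 lower.

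Directions near 0 turned in 7 genes. With the replicate block the log2 fold change was -0.0156 for Ccne2, 0.0041 for Hjurp, -0.0088 for Incenp and -0.0034 for Cdkn1a. With 1 library left out it ran from -0.0309 to 0.0847 for Ccnb2, -0.0063 to 0.124 for Mki67, -0.0191 to 0.0889 for Top2a, -0.0607 to 0.0179 for Hjurp, -0.0076 to 0.0644 for Incenp and -0.0042 to 0.107 for Cdkn1a. It was -0.0177 for Top2a with library weights, 0.0133 for Hjurp with sex as a covariate and -0.0020 for Incenp with median-ratio scaling. Members with the fewest fragments, from 115 a library, have the widest counting error, and 3 libraries a group limit the intervals.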
